A study of Rattus norvegicus with 6 samples.

Results

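Gdf15 and Fgf21 encode secreted hormones that many cell types release under stress, and these 2 of the 17273 genes in the deposited table are described here. They were picked by symbol, because both were much more abundant in lactate-treated than in untreated libraries. Their levels and fold changes are therefore descriptions, and no p-value is given for them. The cells were cultured nucleus pulposus cells, from the gel-like core of the intervertebral disc, of wild-type male Sprague Dawley rats, kept in DMEM with 10% fetal bovine serum. The 3 control libraries came from cells with no treatment, and the 3 lactate libraries from cells held for 8 h with lactate at 10 mM. Neither the form of the lactate (acid or salt) nor the origin of the libraries (separate animals, separate cultures or 1 culture) is stated in the labels. Where p-values are printed for other genes, they measure just how much these libraries vary, and that variation may be technical.

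GDF15 (growth differentiation factor 15) is a distant member of the TGF-beta superfamily. It is made as a precursor, cut by furin-like proteases, and acts through GFRAL, a receptor of the hindbrain that signals with the kinase RET and lowers food intake. FGF21 (fibroblast growth factor 21) is an endocrine member of the FGF family, best known from liver and fat, which signals through FGF receptors joined to the co-receptor beta-klotho (Klb). Both genes are classic targets of the integrated stress response, in which kinases phosphorylate the translation factor eIF2alpha and the transcription factors ATF4 and CHOP (Ddit3) are made. Gdf15 is also induced by DNA damage, and Fgf21 is also induced by the fatty acid sensor PPAR-alpha.

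The sequence just upstream of each start of transcription is shown because it is where stress factors can bind. RefSeq holds 1 start for rat Fgf21 and 2 for Gdf15, which lie 829 bases apart. Which of the Gdf15 starts the cells used cannot be read from counts per gene. The 250 upstream bases are printed 5′ to 3′ on the strand of the gene, from assembly GRCr8. Capitals mark a TATA box (TATAAA) and, in Fgf21, a C/EBP-ATF response element (CARE, TGATGNAA, which reads TTGCATCA here because it lies on the opposite strand), the sequence that ATF4 binds with a C/EBP partner. The stretches are chr1:105221377-105221626 (minus strand) for Fgf21, chr16:18838186-18838435 (plus strand) for Gdf15 start site 1 and chr16:18839015-18839264 (plus strand) for Gdf15 start site 2.
Fgf21: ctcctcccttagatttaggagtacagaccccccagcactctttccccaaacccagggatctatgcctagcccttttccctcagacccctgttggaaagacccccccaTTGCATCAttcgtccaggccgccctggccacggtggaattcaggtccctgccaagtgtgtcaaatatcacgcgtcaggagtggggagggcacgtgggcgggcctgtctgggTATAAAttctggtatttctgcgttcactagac
Gdf15 start site 1: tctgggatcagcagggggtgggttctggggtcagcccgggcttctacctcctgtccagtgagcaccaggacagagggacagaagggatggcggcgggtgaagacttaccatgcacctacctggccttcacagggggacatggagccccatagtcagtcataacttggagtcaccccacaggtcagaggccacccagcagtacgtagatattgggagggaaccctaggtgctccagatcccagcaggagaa
Gdf15 start site 2: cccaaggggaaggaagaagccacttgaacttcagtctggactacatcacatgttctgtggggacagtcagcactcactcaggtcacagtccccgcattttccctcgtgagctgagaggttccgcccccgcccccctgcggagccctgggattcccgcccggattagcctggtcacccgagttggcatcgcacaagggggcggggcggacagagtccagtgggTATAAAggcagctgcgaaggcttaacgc

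The Fgf21 window held a CARE at bases −143 to −136 from the start, a TATA box at −32 to −27, 2 GC boxes (GGGCGG, the site of Sp1) and 1 E-box (CACGTG, the site of helix-loop-helix factors such as ChREBP). Gdf15 start site 2 had a TATA box at −28 to −23 and 5 GC boxes, the last 2 sharing 1 base. Gdf15 start site 1 had no match to any motif named here. Other motifs searched on both strands included the cAMP response element (TGACGTCA), the AP-1 site (TGANTCA), the endoplasmic reticulum stress element and the heat shock element, and these windows held none of those named. Over the same 250 bases, a CARE was found in 3.40% of 33469 RefSeq promoters, a TATA box in 12.9%, a GC box in 30.5% and an E-box in 5.59%. In the 10488 promoters of genes tested here the shares were 1.80%, 6.38%, 58.8% and 7.91%. The Fgf21 window was thus among a small share with a CARE, while GC boxes were common. Bases outside these windows were not searched.

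**Figure D1:**
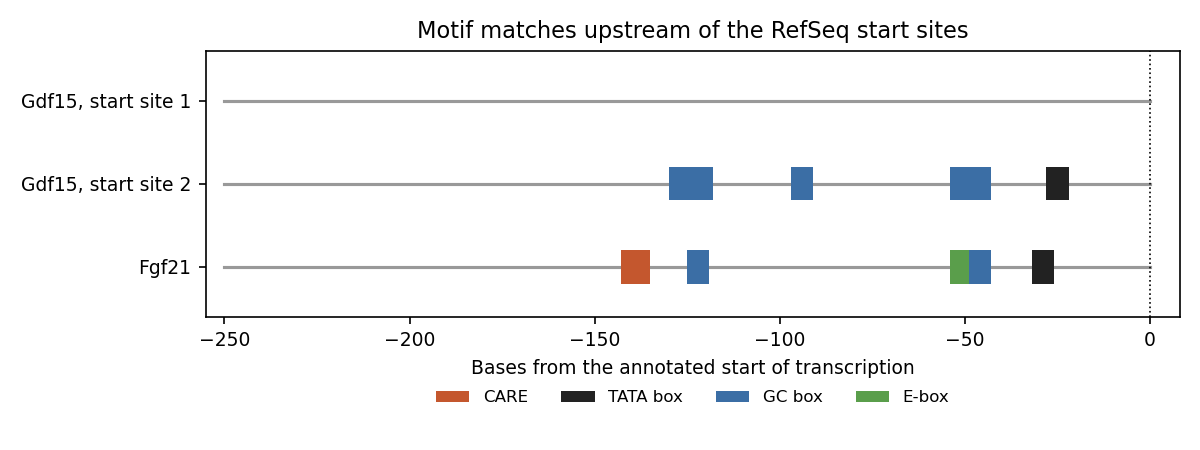
Motif matches in the 250 bases upstream of the RefSeq start sites of Fgf21 and Gdf15, by distance from the start in bases. Coloured blocks are matches on either strand, and the CARE lies at −143 to −136 in Fgf21, with no CARE in either Gdf15 window.

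Libraries held 30291357 to 38989574 counts, and the median gene had 343 to 390 counts in control and 119 to 164 in lactate libraries. Of 13747 genes tested with edgeR, 66.0% were called at an adjusted p under 0.05 (4319 higher and 4760 lower in lactate), so a call by itself sets a gene apart from few others. The split depends on scaling. With TMM factors, which align the bulk of genes, the median log2 fold change was −0.10, and with library totals alone it was −0.95, with 1726 genes higher and 8485 lower. Directions below are relative to the bulk of genes, and values with library totals are given where they differ in sign or call. In bulk RNA, fewer cells of a type and less RNA per cell cannot be told apart. Among disc cell markers the aggrecan gene Acan was at 2391 ± 159 CPM (counts scaled to library size with TMM factors; SD, n = 3) in control and 2288 ± 183 in lactate (log2 fold change −0.06 ± 0.10, not called, but called lower at −0.92 with library totals). Cd24 and Sox9 were higher by 2.32 ± 0.13 and 1.45 ± 0.28 (1.46, and 0.56 and not called, with totals), 2 of 6 markers tested, with a median of 0.76 (−0.10 with totals). Col2a1 had 39 and 55 counts in all. The notochord markers Tbxt and Krt19 had 12 and 9 control counts and 0 lactate counts, so they were all but absent.

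Gdf15 went from a gene of ordinary abundance to one of the most abundant mRNAs. It had 521, 693 and 486 counts in control libraries 1, 2 and 3, and 62900, 59259 and 73573 in lactate libraries 1, 2 and 3. As TMM-scaled CPM, control levels were 11.4, 13.4 and 10.3 and lactate levels 2850, 2785 and 2569. All 3 lactate libraries were far above all 3 controls (so were the groups of 33.7% of tested genes, by any margin), and the lowest lactate level was 192 times the highest control level. The lactate libraries also lay close together, with a coefficient of variation of 5.38% against 13.5% in control. The fitted log2 fold change was 7.87 ± 0.15 (SE), a 234-fold difference, and 7.01 with library totals. Counting error alone gave the ratio of summed counts an interval of 220 to 243 (95%, exact binomial, TMM scaling).

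In FPKM, which also divides by transcript length and so allows genes to be set beside each other, Gdf15 was at 16.6, 19.0 and 14.9 in control and 2178, 2071 and 2199 in lactate libraries. Its rank among the 17273 genes was 4356, 3776 and 4658 in control libraries, and 24, 27 and 25 in lactate libraries. In mean FPKM its nearest neighbours in control were Glrx5, a mitochondrial protein of iron-sulfur cluster assembly, at 16.8, and Kctd17, also at 16.8. In lactate libraries the neighbours were Calr (calreticulin, an abundant chaperone of the endoplasmic reticulum) at 2235 and the mitochondrial gene Mt-cyb at 2134, with Gdf15 at 2149. Gdf15 took 0.00140% to 0.00178% of all counts in control and 0.196% to 0.207% in lactate libraries.

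Fgf21 was close to silent in control libraries. It had 5, 5 and 2 counts there, and 149, 205 and 151 counts in lactate libraries 1, 2 and 3. On the TMM scale, CPM was 0.109, 0.0968 and 0.0424 in control and 6.75, 9.63 and 5.27 in lactate. The groups did not overlap (as for 33.7% of tested genes, with lactate above control by any margin), and lactate library 2 was the highest. The control value rests on 12 counts in all, and the 2 counts of control library 3 are below the 3 counts that a library at 0 still allows. The log2 fold change was 6.38 ± 0.42 (SE), about 83.5-fold, and 5.52 with library totals. The ratio of summed counts was 84.5 with an interval of 48.0 to 165 for counting error alone, much wider than that of Gdf15. With 1 added to FPKM before the logarithm, the log2 difference shrank to 2.96, since that constant exceeds the whole control level.

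In lactate libraries too, Fgf21 was a gene of modest level. FPKM was 0.227, 0.159 and 0.0889 in control and 7.47, 10.4 and 6.54 in lactate libraries. Its rank moved from 13613, 14048 and 14460 to 4836, 3930 and 5618. By rank, lactate Fgf21 thus stood about where control Gdf15 had stood, but its mean FPKM was lower (8.13 against 16.8). The neighbours of lactate Fgf21 in mean FPKM were Myo5a, a myosin motor, and Tmem179b, both at 8.13. Per length, Gdf15 mRNA exceeded Fgf21 mRNA by 72.9, 119 and 167 times in control and by 292, 200 and 336 times in lactate libraries. The length implied by counts and FPKM was 0.646 to 0.656 kb for Fgf21 in 5 libraries but 0.804 kb in control library 2, which lowers its FPKM there, while for Gdf15 it was 0.936 to 0.945 kb in all 6.

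**Figure D2:**
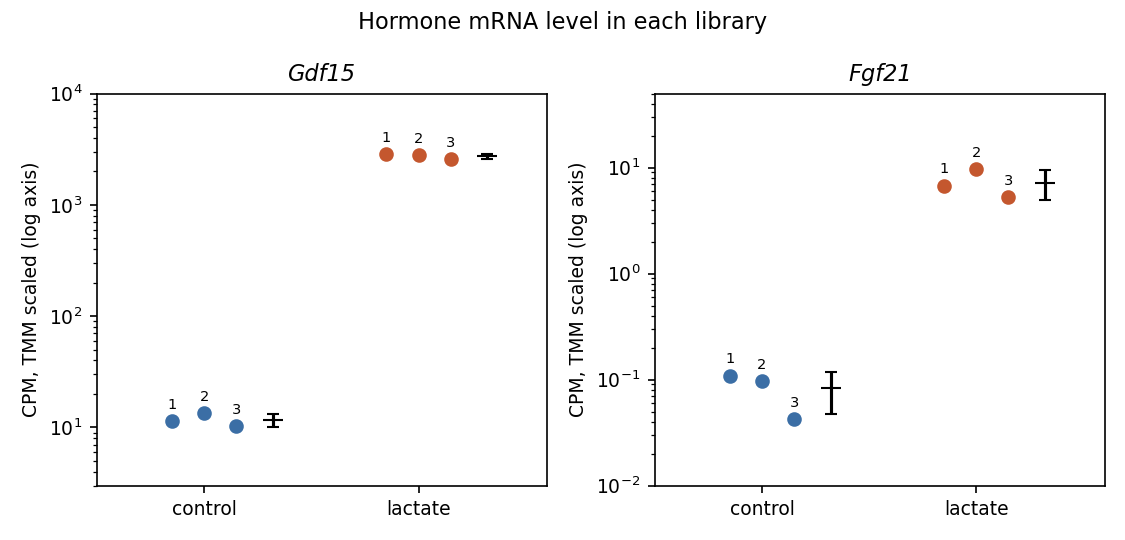
TMM-scaled CPM of Gdf15 and Fgf21 in each library on log axes, with replicate numbers and, beside the points, the mean ± SD of 3 libraries. Gdf15 lies at 10.3 to 13.4 in control and 2569 to 2850 in lactate, and Fgf21 at 0.0424 to 0.109 and 5.27 to 9.63.

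**Figure D3:**
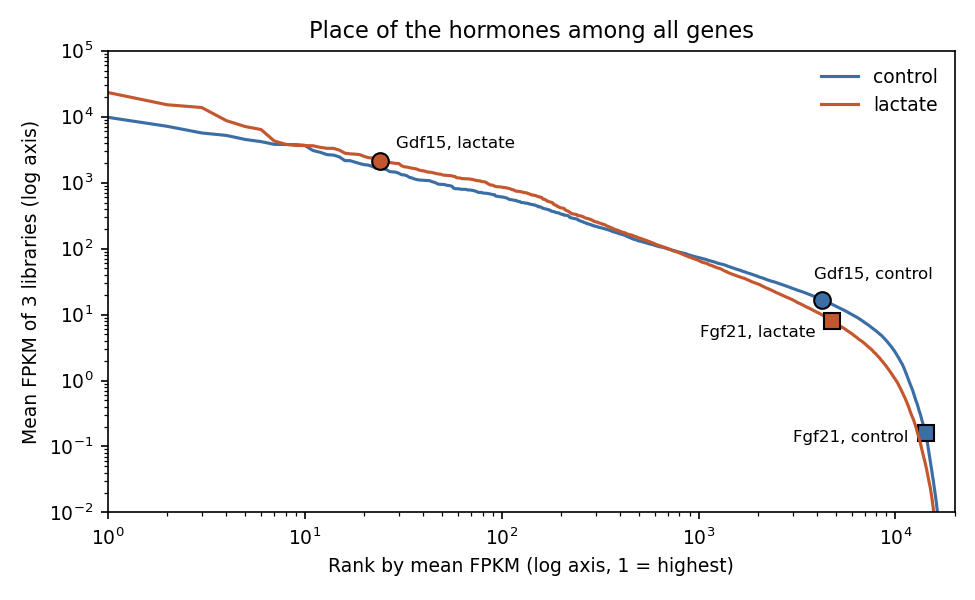
Mean FPKM of 3 libraries against rank for all genes in control and lactate libraries, on log axes, with the hormones marked. Gdf15 moves from 16.8 to 2149 FPKM. Lactate Fgf21, at 8.13 FPKM, lies near control Gdf15 in rank but below it in FPKM.

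Gdf15 had the 12th and Fgf21 the 22nd largest fitted log2 fold change of 13747 genes. The ranks depend on the setting. Without control library 1, 2 or 3 they were 24, 25 and 35 for Gdf15 and 46, 51 and 59 for Fgf21, with DESeq2 19 and 44, and with limma-voom 7 and 33. All 11 genes above Gdf15 in the edgeR fit to all libraries had at least 1 control library at 0, with at most 11 control counts in all. Among the 13571 genes with counts in every control library, Gdf15 ranked 1st and Fgf21 3rd, after Rasd2, a small GTPase, with 9 control and 954 lactate counts. Beside Gdf15 in the full order stood Nppc (a natriuretic peptide) and Gpr4 (a proton-sensing receptor), both without a control count. Set against a limit of 3 counts over the control group, they were at least 42.9-fold and 36.2-fold higher. Beside Fgf21 stood 2 unnamed transcripts. The authors' deposited table gives log2 fold changes of 7.83 for Gdf15 and 6.35 for Fgf21, and lists both as up among its 6359 selected genes.

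The genes most like each hormone over the 6 libraries were sought among tested genes with a symbol. They were those with the smallest Euclidean distance between centred log2 CPM profiles. The profiles used a prior count of 2, which compresses genes as low as Fgf21. A fit with that prior count put the log2 fold change of Fgf21 at 5.71, not 6.38, beside 5.70 for Atf3 in the main fit. For Fgf21 the nearest was Atf3, a stress transcription factor, at a distance of 0.353, followed by Rem2 (a small GTPase, 0.647), Gadd45a (0.860), Gadd45b (0.995) and Stmn4 (1.04). Gadd45a and Gadd45b are growth arrest genes induced by stress and DNA damage. Atf3 was at 4.81, 5.60 and 3.79 CPM in control and 253, 307 and 181 CPM in lactate libraries. Gdf15 had no such close partner. Among its nearest were Trarg1 (1.17), Rasd2 (1.46), Stmn4 (1.90) and Rem2 (2.63), mostly genes at or near 0 in control libraries. Trarg1 and Stmn4 were at 0 in control and had 556 and 337 counts in lactate libraries, which makes them at least 372-fold and 226-fold higher. Counted over all tested genes, with or without a symbol, Fgf21 was the 9th nearest to Gdf15, and Gdf15 the 107th nearest to Fgf21.

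Among the kinases that set off the integrated stress response, their target eIF2alpha and the phosphatase subunits that end it, 5 of 8 were higher and 1 lower, against 31.4% of all tested genes higher and 34.6% lower (2 and 1 with library totals, against 12.6% and 61.7%). The list's median log2 fold change was 0.62, beside −0.10 for all genes (−0.22 and −0.95 with library totals). Ppp1r15a and Ppp1r15b, subunits of the phosphatase that reverses eIF2alpha phosphorylation, rose by 3.80 ± 0.20 and 2.29 ± 0.11 on the log2 scale (edgeR adjusted p = 2.4e-06 and 2e-06). The kinase Eif2ak4 (GCN2) was higher by 0.57 ± 0.10 and the adaptor Nck1 by 0.72 ± 0.13, but both were not called with library totals, at −0.28 and −0.13. Eif2ak1, the kinase HRI, which relays mitochondrial stress, fell by 0.86 ± 0.18 (edgeR adjusted p = 0.003).

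Of 10 stress transcription factors, 5 were higher and 2 lower, beside 31.4% and 34.6% of all genes. With library totals 4 were higher and 5 lower, beside 12.6% and 61.7%. Their median was 0.47, beside −0.10 for all genes (−0.39 and −0.95 with totals). Ddit3, which encodes CHOP, went from 21.4, 20.4 and 19.2 CPM in control to 572, 573 and 425 in lactate libraries (log2 fold change 4.69 ± 0.15, edgeR adjusted p = 4.9e-07). Atf3 rose by 5.70 ± 0.25 (edgeR adjusted p = 1.4e-06) and Cebpb, a C/EBP partner of ATF4, by 1.70 ± 0.16. Atf4 itself, named after its value was seen, was already abundant, at 304, 345 and 299 CPM, and reached 853, 944 and 600 (log2 fold change 1.34 ± 0.16, edgeR adjusted p = 0.00012). Xbp1, of the unfolded protein response, fell by 2.18 ± 0.10 and Atf5 by 1.21 ± 0.13.

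The wider set of ATF4 targets did not move as one. edgeR called 10 of 24 higher and 7 lower and left 7 uncalled, beside 31.4% and 34.6% of all genes. With library totals 7 were higher and 14 lower, beside 12.6% and 61.7%. Their median was −0.09, beside −0.10 for all genes (−0.96 and −0.95 with totals). Among the 10 higher were Ddit3, Atf3 and Ppp1r15a, and among the 7 lower was Atf5, all counted in the lists above too. Slc3a2, a chain of amino acid transporters, rose by 1.52 ± 0.10. Slc7a11, its cystine-carrying partner, fell by 2.42 ± 0.17 and Stc2, a secreted glycoprotein, by 0.93 ± 0.10. The promoters of the hormone and of listed targets with a CARE are set side by side here because genes with the same element had different outcomes. Among 8 stress factors and 21 ATF4 targets with a RefSeq promoter, 2 and 5 held a CARE, Trib3 being in both lists. Of the promoters of all genes tested, 1.80% held one. Sequences are oriented on TGATGNAA (capitals), which lies on the opposite strand from the gene in each, and all are from assembly GRCr8.
Fgf21: tggacgaaTGATGCAAtggggggg
Herpud1: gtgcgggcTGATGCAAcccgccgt
Chac1: agcaggagTGATGCAAcggcggag
Nupr1: gccctgtcTGATGCAAtctggcct
Aars1: ggctcggcTGATGCAAtgctcaag
Trib3: cgcccggcTGATGTAAacctgagc
Pck2: aaggatacTGATGTAActttgaag

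Herpud1, of the degradation of misfolded proteins, rose by 1.74 ± 0.22 (edgeR adjusted p = 0.00015), and Pck2, the mitochondrial PEP carboxykinase, fell by 0.75 ± 0.23 (edgeR adjusted p = 0.02). The Pck2 call was lost without control library 1 or 2 or lactate library 1 (edgeR adjusted p = 0.069, 0.052 and 0.065). The other 4 were not called. These genes were named after their values were seen. Chac1, a glutathione-degrading enzyme, was at −0.17 ± 0.28, the pseudokinase gene Trib3 at −0.19 ± 0.19, the stress regulator Nupr1 at −0.22 ± 0.15 and the alanyl-tRNA synthetase Aars1 at 0.14 ± 0.09. With library totals these 4 were called lower, at −1.05, −1.06, −1.09 and −0.72. Fgf21 thus had its TGATGCAA in common with Herpud1, which rose, and with Chac1, Nupr1 and Aars1, which were not called (Aars1 was called higher, at 0.38, once a trend of fold change on length was removed). Of 12 secreted stress factors with a RefSeq promoter, Inhbe held the same TGATGCAA and Cdnf another CARE, and neither was called (−0.80 ± 0.37 and 0.04 ± 0.59, with Inhbe called lower at −1.66 with totals). A match to letters is a description and does not show binding. Only the 250 upstream bases were searched, so a gene without a match there may hold a CARE elsewhere.

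Of genes of the DNA damage and growth arrest response, 14 of 16 were higher and 2 lower, beside 31.4% and 34.6% of all genes. With library totals 12 were higher and 3 lower, beside 12.6% and 61.7%. Their median log2 fold change was 2.65, beside −0.10 for all genes (1.79 and −0.95 with totals). Gadd45a rose by 5.09 ± 0.20 on the log2 scale and reached 1740 ± 202 FPKM (SD, n = 3) in lactate libraries, below the 2149 ± 68.4 FPKM of Gdf15. Mdm2, a ubiquitin ligase, rose by 3.69 ± 0.13, Plk2, a polo-like kinase, by 3.66 ± 0.12 and Phlda3, an inhibitor of AKT, by 2.49 ± 0.09 (edgeR adjusted p = 7.8e-07, 4.9e-07 and 8.9e-07). Fas, a death receptor, fell by 1.16 ± 0.16 and Rrm2b, a ribonucleotide reductase subunit, by 1.92 ± 0.28.

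Of 6 other regulators of Gdf15, 3 were higher and 3 lower, beside 31.4% and 34.6% of all genes (1 and 4 with library totals, beside 12.6% and 61.7%). Their median of −0.15 (−0.9998 with totals) was near that of all genes, −0.10 (−0.95 with totals). Sp1, which binds GC boxes, went from 75.8, 77.3 and 75.0 CPM to 711, 718 and 673, a rise of 3.20 ± 0.09 (edgeR adjusted p = 2.8e-07). Gdf15 start site 2 had 5 GC boxes and start site 1 none. Fgf21 had GC boxes too, as did 58.8% of the promoters of genes tested. A part of Sp1 in either hormone's level was not tested. Egr1, an early growth response factor, fell by 1.37 ± 0.17, and the NF-kB genes Nfkb1 and Rela fell by 1.73 ± 0.13 and 0.73 ± 0.10. Hif1a, of the hypoxia response, was higher by 0.84 ± 0.11 (−0.03 and not called with totals). Nfe2l2, which encodes the antioxidant regulator NRF2, was higher by 0.44 ± 0.10 but lower with totals, at −0.41.

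Of 11 regulators that drive Fgf21 in liver and fat, 6 were tested, with 1 higher and 4 lower, beside 31.4% and 34.6% of all genes (1 and 5 with library totals, beside 12.6% and 61.7%). Their median was −0.83, and −1.68 with totals. Ppara, which encodes PPAR-alpha, had 18, 27 and 20 control counts and 0, 0 and 4 lactate counts (log2 fold change −2.98 ± 0.91, edgeR adjusted p = 0.018). The call was lost without control library 2 (0.057) or without lactate library 1 (0.051). Pparg, the regulator of fat cells, fell by 1.41 ± 0.39, Rxra, the partner of both, by 1.03 ± 0.20 and Mlx, the partner of ChREBP and MondoA, by 0.64 ± 0.12. Mlxip, which encodes MondoA, was not called (0.17 ± 0.22, and called lower at −0.67 with totals). Rora, a nuclear receptor, rose by 2.31 ± 0.16 (edgeR adjusted p = 6e-06). Creb3l3, a liver factor, had 5 control and 0 lactate counts. Ppargc1a, Mlxipl, Nr1h4 and Sirt1 were not analysed here.

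**Figure D4:**
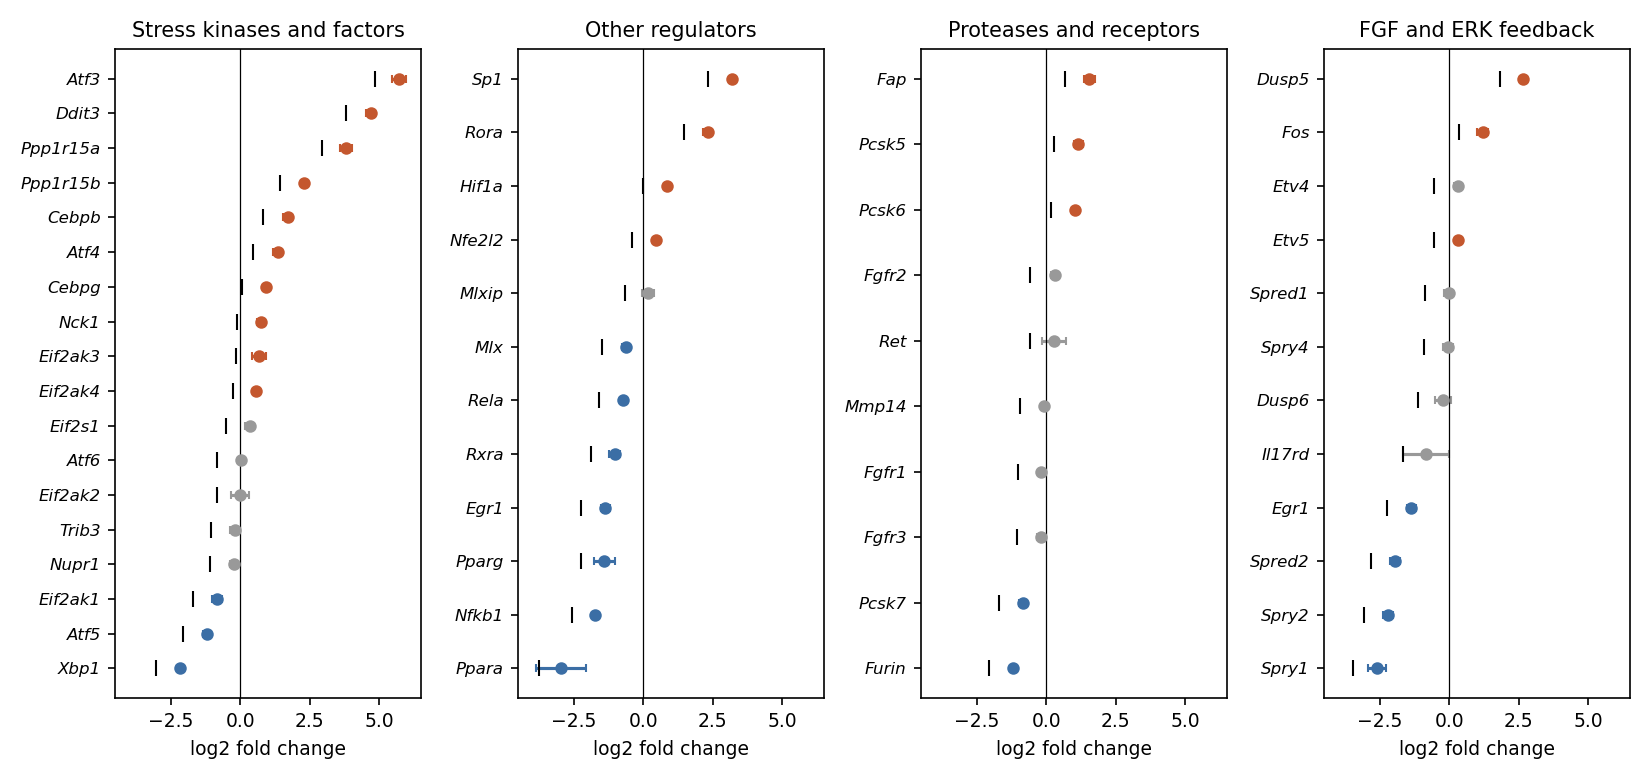
Log2 fold change of lactate over control (points, TMM scaling, bars ± SE; vertical ticks, library totals) for stress kinases and factors, other regulators, proteases and receptors, and FGF and ERK feedback genes. Orange marks genes called higher, blue called lower and grey not called with TMM scaling. Atf3, at 5.70, is the highest and Ppara, at −2.98, the lowest.

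Of 6 proteases that cut the hormones or their receptors, 3 were higher and 2 lower, beside 31.4% and 34.6% of all genes (1 and 3 with library totals, beside 12.6% and 61.7%; median 0.48, −0.38 with totals). Furin, of the family that cuts the GDF15 precursor, went from 111, 113 and 127 CPM to 52.9, 49.2 and 51.2, a fall of 1.19 ± 0.10 (log2 fold change −1.19, edgeR adjusted p = 1.5e-05), and the related Pcsk7 fell by 0.85 ± 0.12. Its relatives Pcsk5 and Pcsk6 were higher by 1.15 ± 0.16 and 1.03 ± 0.12, but not called with totals (0.29 and 0.17). Fap, the protease that inactivates human FGF21, rose by 1.55 ± 0.20 (0.69 with totals). Whether it cuts rat FGF21 was not tested. Mmp14, a membrane protease that cuts GFRAL, was not called (−0.07 ± 0.08, and called lower at −0.93 with totals).

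Of 4 receptor genes tested, edgeR called 0 higher and 0 lower, beside 31.4% and 34.6% of all genes. At an unadjusted p under 0.05 edgeR found 1 higher, and DESeq2 called 1 higher, which was Fgfr2 in both. With library totals 0 were higher and 3 lower, beside 12.6% and 61.7%. The median was 0.05, beside −0.10 for all genes (−0.81 and −0.95 with totals). Gfral and Klb, which set the tissues that respond to GDF15 and FGF21, were not analysed here. Ret had 24, 51 and 37 counts in control and 15, 27 and 24 in lactate libraries and was not called (0.27 ± 0.42, edgeR adjusted p = 0.59; −0.59, not called, with totals). Kl (klotho, the co-receptor of FGF23) and Fgfr4 had 2 control counts each and 0 lactate counts. FGF receptors that FGF21 can use with its co-receptor were expressed. Fgfr1 was at 81.3, 85.7 and 89.9 CPM in control and 71.4, 75.8 and 80.1 in lactate libraries, and was not called (−0.18 ± 0.10, edgeR adjusted p = 0.14). Fgfr2 (0.30 ± 0.12) and Fgfr3 (−0.18 ± 0.15) were not called either. With library totals Fgfr1, Fgfr2 and Fgfr3 were called lower, at −1.03, −0.57 and −1.05, while Fgfr2 was called higher with DESeq2 (0.33, adjusted p = 0.036) and without lactate library 3 (0.44, edgeR adjusted p = 0.0015).

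Genes that respond to FGF receptor and ERK signalling were split, with 3 of 12 higher and 4 lower (1 and 9 with library totals; median −0.14, −1.01 with totals). Dusp5, a nuclear ERK phosphatase, rose by 2.67 ± 0.13 (edgeR adjusted p = 2e-06), while the feedback inhibitors Spry2 and Spred2 fell by 2.20 ± 0.18 and 1.96 ± 0.18. Fos was higher by 1.21 ± 0.20 (0.34 and not called with totals). Etv5, an ETS factor, was higher by 0.30 ± 0.09 but lower with totals, at −0.56. The 7 called genes among 12 stand beside 66.0% called of all genes (31.4% higher and 34.6% lower). With library totals, 12.6% of all genes were higher and 61.7% lower.

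Gdf15 made most of the mRNA of its family in lactate libraries. The 24 TGF-beta superfamily ligands in the table summed to 600 to 671 FPKM in control, of which Gdf15 made 2.26% to 2.83%, the 6th highest in each library. In lactate libraries the sum was 2397 to 2582 FPKM and Gdf15 made 85.2% to 86.7%. The sum of the other ligands went from 583 to 652 FPKM in control to 326 to 383 in lactate. FPKM follows library totals, with which the median log2 fold change of all tested genes was −0.95. This lower sum therefore does not set the family apart from the bulk of genes. Tgfb3, the highest ligand in control at 255, 250 and 259 FPKM, was not called (−0.05 ± 0.09, and called lower at −0.90 with totals). Without Gdf15, 15 ligands were tested, with 1 higher and 7 lower, beside 31.4% and 34.6% of all genes. With totals 1 was higher and 12 lower, beside 12.6% and 61.7%. Their median was −0.94, beside −0.10 for all genes (−1.80 and −0.95 with totals). Tgfb1 rose by 1.24 ± 0.09, while Inhba, a subunit of activin, fell by 2.68 ± 0.21, Bmp4 by 2.82 ± 0.13 and Bmp3 by 4.20 ± 0.47 (edgeR adjusted p = 8.8e-06, 9.9e-06, 1.9e-06 and 7.2e-05).

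None of the other FGF genes tested with Fgf21 was called higher. Of these 8, edgeR called 0 higher, 4 lower and 4 neither way, beside 31.4% higher and 34.6% lower of all genes. With library totals 0 were higher and 6 lower, beside 12.6% and 61.7%. The median was −0.59, beside −0.10 for all genes (−1.45 and −0.95 with totals). At an unadjusted p under 0.05 edgeR, DESeq2 and limma-voom also found 0 higher. Of the 14 family members in the table, Fgf21 was the 10th, 10th and 11th by FPKM in control libraries and the 2nd in each lactate library. It made 0.0708% to 0.209% of the family's summed FPKM in control and 11.8% to 17.4% in lactate. Above it stood Fgf7, the keratinocyte growth factor of connective tissue, at 77.0, 95.8 and 89.4 FPKM in control and 39.6, 41.0 and 41.6 in lactate (not called, −0.23 ± 0.12, but called lower at −1.09 with totals). Fgf10, Fgf22 and Fgf1 fell, with log2 fold changes of −2.21 ± 0.13, −3.16 ± 0.43 and −0.95 ± 0.26 (edgeR adjusted p = 3.1e-06, 0.00024 and 0.012). Fgf16 was at 0 in all lactate libraries against 113 counts in control, at least 18.8-fold lower if the lactate group is allowed 3 counts, and the median was −0.59 with it at that bound too. The Fgf1 call was lost without control library 2 (edgeR adjusted p = 0.059).

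**Figure D5:**
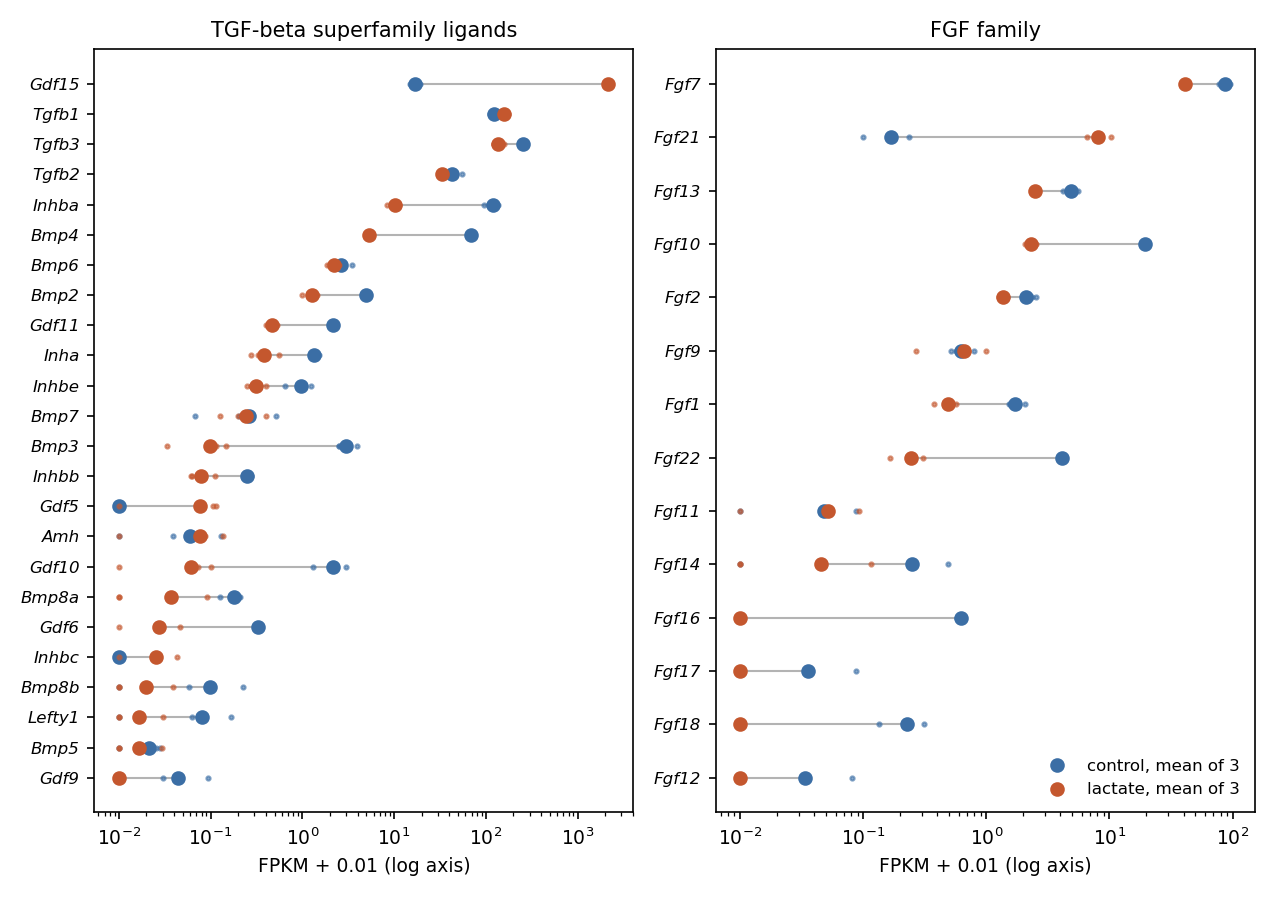
FPKM + 0.01 on log axes for TGF-beta superfamily ligands and FGF genes in the table. Small points are libraries, large points the mean of 3, and grey lines join control to lactate. Gdf15 lies above every other ligand in lactate libraries, and Fgf21 lies next below Fgf7.

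Of 13 other secreted stress factors tested, 8 were higher and 3 lower, beside 31.4% and 34.6% of all genes. With library totals 7 were higher and 4 lower, beside 12.6% and 61.7%. Their median was 1.81, beside −0.10 for all genes (0.94 and −0.95 with totals). Manf and Creld2, secreted proteins of the stressed endoplasmic reticulum, rose by 1.87 ± 0.09 and 2.46 ± 0.14, Metrnl (meteorin-like) by 1.81 ± 0.11 and the vasodilator peptide Adm by 2.51 ± 0.16 (edgeR adjusted p = 2e-06, 2.7e-06, 4.2e-06 and 4.8e-06). Adm2, another peptide of the ATF4 pathway, fell by 1.08 ± 0.19, Stc2 fell as given above, and Fst (follistatin) fell by 0.49 ± 0.18. The Fst call was lost without control library 1 or 3 and without lactate library 1 or 2 (edgeR adjusted p = 0.059, 0.18, 0.12 and 0.066). Set beside these 17 by FPKM, Gdf15 was 7th, 7th and 8th of 19 in control libraries and 1st in each lactate library, with Manf next at 327, 324 and 343 FPKM. Fgf21 was 15th in each control and 10th in each lactate library.

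Markers of other cells that make these hormones were sparse. Of liver cell markers, 3 of 6 were in the table, with 2 to 10 counts per control library and 0 to 7 per lactate library summed over the list. Fat cell markers (4 of 5) had 17 to 24 and 4 to 16 counts, and Adipoq had 3 control and 5 lactate counts in all. Macrophage and leukocyte markers (4 of 6) summed to 9.60 to 10.6 CPM in control and 4.09 to 5.39 in lactate. Within that list Cd14 fell by 1.72 ± 0.19, Cd68 was higher by 1.48 ± 0.40 (0.64, not called, with totals), and the defining marker Adgre1 had 4 and 0 counts. Endothelial markers (1 of 5) had 0 counts in control and 2 to 5 per lactate library. Skeletal muscle markers (5 of 6) summed to 11.2 to 13.9 CPM in control and 15.1 to 23.3 in lactate, nearly all from Acta1 (0.70 ± 0.19, −0.16 and not called with totals), with Ckm at 0 and 3 counts. The part of these cells in the levels of both hormones was not tested.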

How the data were processed

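RNA was sequenced from 6 libraries of rat nucleus pulposus cells, 3 control and 3 lactate (10 mM, 8 h), grouped by their labels. The deposited table gives, per the file headers, a whole-number count and an FPKM value (fragments scaled to transcript length and library size) for 17273 genes in each library, with the authors' own log2 fold change and p-value for each gene, which were not used in the tests. No aligner, counter or strand setting is given in the sources used here. Mouse builds (GRCm38, mm10) stand in the submitters' processing notes, while the gene names are those of rat, so no coordinate was taken from these notes. Names of 14063 genes (81.4%) matched RefSeq GRCr8, the source of the promoters.

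Counts were tested with edgeR 4.0.16 (quasi-likelihood, TMM factors, filterByExpr) in R 4.3.3, with Benjamini-Hochberg adjustment over 13747 genes and calls at an adjusted p under 0.05. The script was checked on simulated counts with 100 planted 2-fold and 100 planted 4-fold changes among 13747 genes. There edgeR recovered 49% and 86% of them and called 9 unchanged genes. Far more genes were called in the data, so that check cannot speak for the choice of scaling. Alternatives were other scaling (RLE, upper quartile, library totals), other filters, DESeq2 1.42.0, limma 3.58.1 (voom, and trend on log2 of FPKM plus 1 or 0.1), a block for replicate number, a correction for length and leaving out each library. The run without 32 genes at 0 in 1 library and over 1000 in another was added after seeing the data. Libraries held 30291357 to 38989574 counts. A library at 0 still allows 3 counts, 0.0581 to 0.141 CPM with TMM scaling. Intervals (95%) are exact binomial and, like this limit, cover counting error only. The hormones and all gene lists were chosen with earlier results of these data known. Named genes were every measured receptor, protease and other regulator, up to 4 called genes with the smallest p and up to 3 called against the majority in each other list, the 5 genes nearest each hormone and its neighbours in level and in fold change. Cell type markers and Fgf7 and Tgfb3, the highest relatives, were named besides. Some items are not reported here. Genes that share reads with a near-identical copy could not be told from it.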

Additional observations from a re-analysis of the deposited data

How the results depend on the processing

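The count of genes called (9079) stayed within 1.5 times under all alternatives run, at 8671 to 10540, and at 8026 to 9407 when 1 library was left out. Of the 140 listed genes tested, 98 were called (Gdf15 and Fgf21 included), beside 66.0% of all genes, and other settings gave 93 to 114. Calls of the hormones are no test, since both were chosen for their rise. Gdf15 and Fgf21 were higher in lactate in every setting run. With 1 library left out, the log2 fold change was 7.78 to 7.98 for Gdf15 and 6.08 to 6.60 for Fgf21. For Gdf15 it was 7.71 with upper-quartile factors, 7.48 with the length trend removed, 7.01 with library totals, 6.997 on log2(FPKM + 0.1) and 6.92 on log2(FPKM + 1). For Fgf21 it was 5.71 with a prior count of 2, 5.67 with the length trend removed, 5.52 with library totals, 5.00 on log2(FPKM + 0.1) and 2.96 on log2(FPKM + 1). A larger added constant lowers the fold of a gene that is near 0 by construction, and the cause of the other shifts was not tested. The labels state no pairing by replicate number. Same-numbered deviations from the group means correlated at 0.00776, 0.0381 and 0.0840, and differently numbered ones at −0.108 to 0.0713. With so few libraries these values cannot settle whether same-numbered samples shared an origin. With a replicate block 8814 genes and 98 listed genes were called, with 7.87 for Gdf15 and 6.40 for Fgf21, and no named gene changed its call. Of 1559 checks on 87 named genes, 1448 kept direction and call, 35 lost the call, 34 gained one and 42 turned direction, in 17 genes. Of these, 11 turned with library totals, log2(FPKM + 0.1) and log2(FPKM + 1), with values given in that order. They were Aars (named Aars1 in RefSeq; −0.72, −0.73, −0.72), Acta1 (−0.16, −0.19, −0.17), Eif2ak4 (−0.28, −0.29, −0.23), Etv5 (−0.56, −0.57, −0.53), Fgfr2 (−0.57, −0.58, −0.56), Hif1a (−0.026, −0.037, −0.036), Hspa9 (−0.24, −0.26, −0.26), Mlxip (−0.67, −0.70, −0.58), Nck1 (−0.13, −0.15, −0.14), Nfe2l2 (−0.41, −0.42, −0.42) and Ret (−0.59, −0.36, −0.078). With the length trend removed, Hspe1 turned to −0.055, Fgfr3 to 0.0094, Mmp14 to 0.031 and Tgfb3 to 0.074, and with upper-quartile factors Aars turned to −0.015. With 1 library left out, Chac1 ranged from −0.44 to 0.15, Trib3 from −0.35 to 0.0016 and Mlxip from −0.035 to 0.32, each turning without lactate library 3, and Ret from −0.0044 to 0.50, turning without lactate library 2. Library totals move the median gene down, which turns small positive values by construction. The fold of Fgf21 is limited by its 12 control counts in all.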

Other observations

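Mitochondrial chaperones and proteases, the genes of the mitochondrial unfolded protein response that often accompanies the release of both hormones in muscle, were also measured. edgeR called 5 of 8 higher and 1 lower, beside 31.4% and 34.6% of all genes (2 and 5 with library totals, beside 12.6% and 61.7%). Their median was 0.42 on the log2 scale (−0.43 with totals), beside −0.10 for all genes. The chaperonin genes Hspd1 and Hspe1 rose by 1.11 ± 0.09 and 1.26 ± 0.13 (SE, edgeR adjusted p = 1.4e-05 and 5e-05; 0.25 and 0.39 with totals), although Hspe1 was at −0.055 once the length trend was removed. Hspa9, the mitochondrial HSP70, was higher by 0.61 ± 0.10 (−0.24 and not called with totals). Dnaja3, a co-chaperone of Hspa9, fell by 1.71 ± 0.12 (edgeR adjusted p = 5.9e-06).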
